A study of Mus musculus with 6 samples.

Results

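Oligodendrocyte lineage genes were followed in cultured mouse astrocytes after miR-29 was raised. The set is a fixed list of 9 genes: the transcription factor genes Olig1, Olig2 and Sox10, the precursor genes Cspg4 and Gpr17, and the myelin genes Mbp, Cnp, Cldn11 and Mag. Each gene was represented by every non-control array probe whose RefSeq accession maps to it, which gave 16 of the 41174 non-control probes and 9 of the 18349 genes that such probes name. The data were 6 one-colour Agilent Whole Mouse Genome arrays of primary astrocytes, bought as cultures of the cerebral cortex of C57BL/6 fetuses at embryonic day 18. The 3 miR-29 samples received a mixture of hsa-miR-29a, hsa-miR-29b and hsa-miR-29c precursors (Ambion Pre-miR) in the molar ratio 1:2:1, and the 3 control samples received Pre-miR Negative Control1. Both transfections were at 80 nM with RNAiMax, 3 weeks after plating, and RNA was taken 48 h later. The protocol states an efficiency above 90% from a labelled precursor. The labels call the replicates extraction replicates and mention no separate cultures. The spread behind each p-value is therefore the one between these extractions and may be technical.

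Oligodendrocytes are the cells that wrap axons of the brain and spinal cord in myelin. They arise from dividing precursors that carry the proteoglycan NG2, and the step to a myelinating cell is driven by OLIG, SOX and MYRF transcription factors and ends with high expression of myelin proteins. Cultures of cortical astrocytes are known to hold some cells of this lineage, and astrocytes and other cell types express some of these genes too. In RNA from a whole culture, fewer cells of a type and less RNA per cell cannot be told apart.

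MicroRNAs pair with messenger RNAs mainly through the seed, bases 2 to 8. The mature strands are shown because the transfected precursors differ outside the seed and share it, and capitals mark the seed. They are RefSeq entries of mouse build GRCm38.p6, and each of the 3 names matched.
mmu-miR-29a-3p: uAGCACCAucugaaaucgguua
mmu-miR-29b-3p: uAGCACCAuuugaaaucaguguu
mmu-miR-29c-3p: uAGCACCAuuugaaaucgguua
All 3 belong to 1 seed group. Counted from the 5′ end, miR-29a and miR-29c differ at 1 of 22 positions (C10U), and miR-29b and miR-29c differ at 3 of the first 22 (A18G, G21U and U22A), with miR-29b being 23 bases long. The miR-29a strand lies at chr6:31062673-31062694 on the minus strand and the miR-29c strand at chr1:195037600-195037621 on the plus strand. The miR-29b strand is encoded at both loci, at chr6:31063025-31063047 on the minus strand and at chr1:195037091-195037113 on the plus strand. Whether messenger RNAs of the 9 genes pair with this seed was not examined.

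On each array 61.9% to 66.8% of the probes were well above background, and 0 spots were saturated. The 3 miR-29 arrays shared slide 1 with control replicate 1, whereas control replicates 2 and 3 were on slide 2. Without control replicate 1, slide and group therefore coincide for every gene. Values within slide 1 set 3 arrays against 1 and are given without an adjusted p. The fit with the slide as a block has the same value and assumes that this 1 control array varies like the other arrays. Values below are log2 processed signal minus the 75th percentile of the array unless another scale is named, so 0 is the 75th percentile, and a level is read only against the same probe on other arrays. Differences (log2, miR-29 minus control) carry the standard error (SE) and Benjamini-Hochberg adjusted p from limma over all 26428 tested probes, with a threshold of 0.05. Probes that all 3 arrays of a group, or of both, showed well above background were tested. Of those probes 8993 were higher in the miR-29 arrays, or 34%, and 6205 were lower, or 23.5%. With scaling to the spike-in RNAs instead, the median of all probes moved by -0.23 on the log2 scale and 3970 probes were higher and 9931 lower, so that 28.6% of the called probes were higher, against 59.2% with the 75th percentile.

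Of the 9 genes, 8 had a tested probe, and Gpr17 had none. Of the 10 tested probes 4 were higher in the miR-29 arrays (40%, beside 34% of all tested probes), 4 were lower (40%, beside 23.5%) and 2 did not pass. By gene, counted by the brightest tested probe, Olig1, Olig2, Mbp and Cnp were higher, Sox10, Cspg4 and Cldn11 were lower, and Mag did not pass. The Sox10 call did not hold with the slide as a block. Over all genes with a symbol, 36.5% were higher and 25.3% were lower by the same count. The median over the 8 genes was -0.034 (0.27 against the control array of slide 1), beside 0.060 over all 13713 genes. The genes of 1 stage of the lineage did not all go one way: Olig1 and Olig2 differed in sign from Sox10, and Mbp and Cnp from Cldn11.

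**Figure D1:**
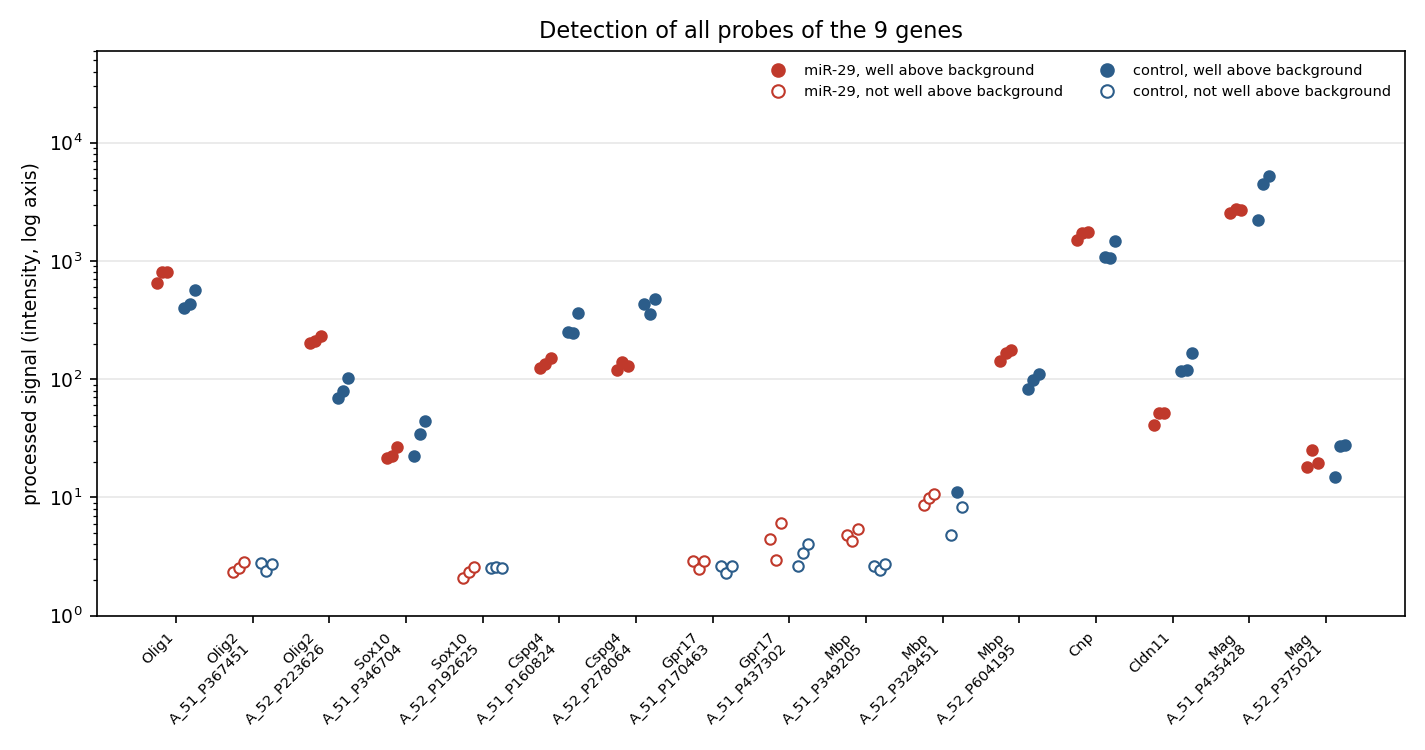
Processed signal (intensity, log axis) of all 16 probes of the 9 genes on each of the 6 arrays, miR-29 in red at the left and control in blue at the right of each probe. Filled points were well above background on that array (for the Mbp probe with 10 spots, on most of its spots). The 6 probes that were not tested lie between 2.09 and 11.0, and both Gpr17 probes are among them.

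The transcription factor genes come first in the lineage. Olig2 encodes a basic helix-loop-helix factor that specifies the lineage and is also expressed by some astrocytes and their progenitors. Its probe A_52_P223626 (NM_016967) stood at -1.25, -1.39 and -1.29 on the miR-29 arrays, against -2.78, -2.57 and -2.61 on the control arrays. The lowest miR-29 array was above the highest control array. Olig2 thus averaged -1.31 ± 0.073 in miR-29 samples and -2.65 ± 0.11 in control samples (SD, n = 3 each), a 2.53-fold higher level (log2 1.34, SE 0.076, limma adjusted p = 6.86e-05). Among all tested probes 1.13% rose by at least as much. Against the control array of the same slide the difference was 1.47, and with normexp background correction it was 0.87 and stayed past the threshold. The second Olig2 probe, A_51_P367451, had signals that on no array were well above background, 2.32 to 2.85, and gives no second measurement.

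Olig1, the neighbouring relative of Olig2 and needed for maturation and repair of myelin, had levels of 0.43, 0.54 and 0.50 on the miR-29 arrays, against -0.24, -0.14 and -0.14 on the control arrays. The groups did not overlap. The means were 0.49 ± 0.052 in miR-29 samples and -0.17 ± 0.061 in control samples (SD, n = 3 each), a 1.59-fold rise (log2 0.66, SE 0.057, limma adjusted p = 0.000254). Within slide 1 the rise was 0.74. Scaling to the spike-ins gave 0.43 and kept the call (adjusted p = 0.00966).

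Sox10 encodes the high-mobility-group factor that activates myelin genes in oligodendrocytes, and Schwann cells and melanocytes use it too. Its probe A_51_P346704 (NM_011437) gave -4.48, -4.64 and -4.42 on the miR-29 arrays, against -4.40, -3.77 and -3.83 on the control arrays. Control replicate 1, on the slide of the miR-29 arrays, lay at the level of the miR-29 arrays, 0.014 above the highest of them, and the 2 control arrays of slide 2 were higher. The fall of 0.51 on the log2 scale (SE 0.18) had a limma adjusted p of 0.0470. Within slide 1 the difference was -0.11, and it did not pass when the slide was a block (adjusted p = 0.415). Without control replicate 1 it was -0.71 (adjusted p = 0.0014), and leaving out any other single array gave -0.56 to -0.39, none past the threshold (adjusted p between 0.0815 and 0.135). For this gene, as for every other, slide and group could not be separated beyond that 1 control array, and without it they coincide. The second Sox10 probe, A_52_P192625, had on none of the 6 arrays a signal well above background.

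**Figure D2:**
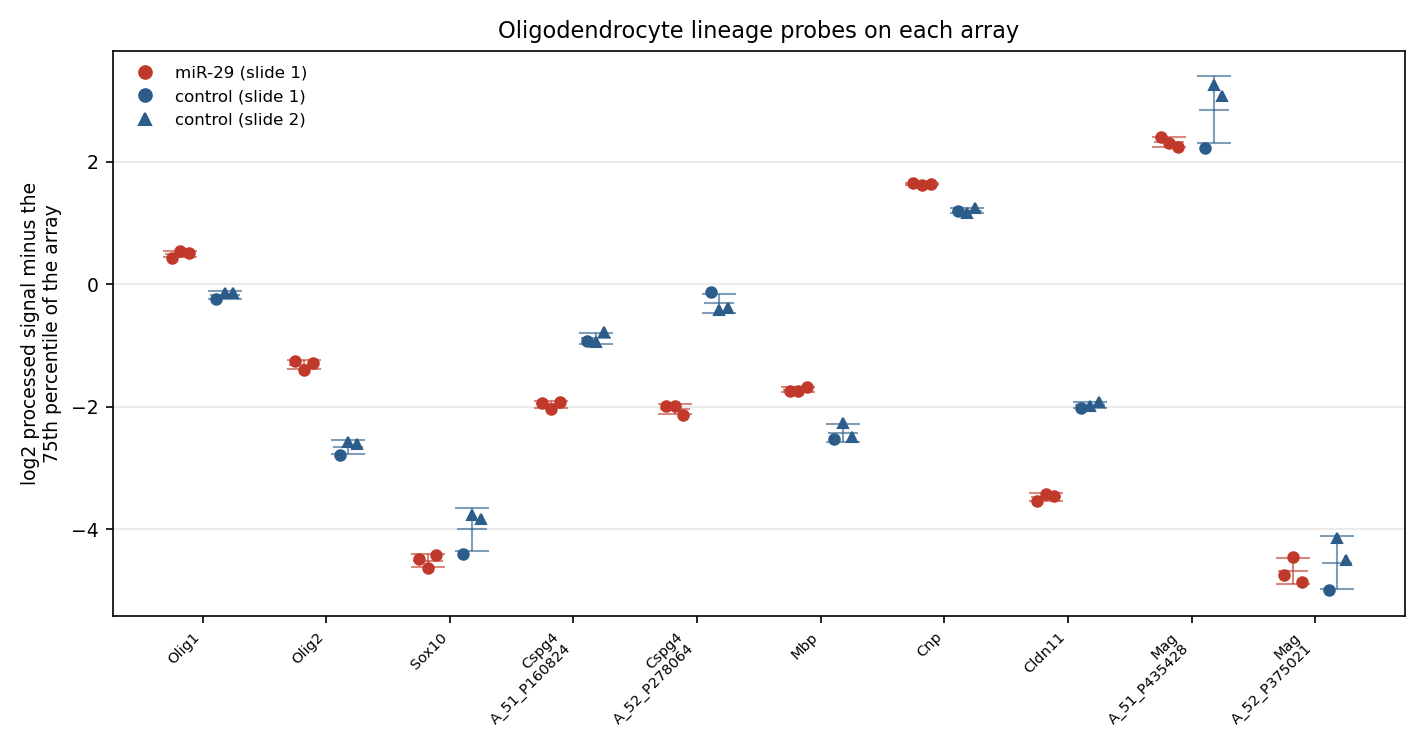
Level of the 10 tested probes on each array (log2 processed signal minus the 75th percentile of the array), miR-29 in red at the left and control in blue at the right, with mean and SD bars (n = 3 each). Circles are arrays of slide 1 and triangles arrays of slide 2. The groups stand apart for Olig1, Olig2, both Cspg4 probes, Mbp, Cnp and Cldn11, while for Sox10 and both Mag probes the control array of slide 1 lies by the miR-29 arrays or below them.

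Of the precursor genes only Cspg4 was measured. Cspg4 encodes NG2, the surface proteoglycan of oligodendrocyte precursors, which pericytes carry as well. Probe A_52_P278064 gave -1.993, -1.995 and -2.134 on the miR-29 arrays, against -0.129, -0.419 and -0.395 on the control arrays. Its means were -2.04 ± 0.081 in miR-29 samples and -0.31 ± 0.16 in control samples (SD, n = 3 each), so Cspg4 fell by 1.73 on the log2 scale (SE 0.094, limma adjusted p = 6.22e-05), or 3.31-fold. Among all tested probes 0.666% fell by at least as much.

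Probe A_51_P160824, of the same accession NM_139001, also showed Cspg4 lower on every miR-29 array. It read -1.94, -2.04 and -1.92 in miR-29 samples and -0.93, -0.94 and -0.78 in control samples, so that it fell by 1.08 (SE 0.068, adjusted p = 9.0e-05). Neither probe had overlapping groups, and both kept sign and size within slide 1 (-1.91 and -1.03). The falls of the 2 probes were unequal: they differed by 0.65 (SE 0.13, limma adjusted p = 0.0142 over 8326 pairs of probes of 1 gene). In 27.6% of all such pairs the 2 probes differed past the threshold.

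Gpr17 encodes a receptor found transiently on committed precursors before they myelinate. Probe A_51_P170463 read 2.87, 2.46 and 2.88 in processed signal on the miR-29 arrays, against 2.61, 2.30 and 2.63 on the control arrays. Probe A_51_P437302 read 4.47, 2.94 and 6.07 on the miR-29 arrays, against 2.65, 3.41 and 4.02 on the control arrays. On no array was either well above background, so no difference is given for Gpr17.

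Among the myelin genes Cldn11 changed most. It encodes claudin 11, the tight junction protein of the myelin sheath, which is also made by arachnoid cells. Probe A_51_P409452 (NM_008770) read -3.54, -3.42 and -3.46 on the miR-29 arrays, against -2.01, -1.99 and -1.92 on the control arrays. Every miR-29 array was below every control array, with means of -3.47 ± 0.061 in miR-29 samples and -1.98 ± 0.048 in control samples (SD, n = 3 each). Cldn11 fell by 1.50 on the log2 scale (SE 0.056, limma adjusted p = 2.95e-05), or 2.82-fold, a fall that 1.16% of the tested probes matched or passed. Within slide 1 the difference was -1.46, and blocking on the slide left it past the threshold (adjusted p = 0.000543). With normexp it was -0.90, also past the threshold.

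Mbp encodes myelin basic protein, and the same locus yields the golli transcripts, which start further upstream and occur outside oligodendrocytes too. Probe A_52_P604195, whose accession is NM_001025245, read -1.75, -1.74 and -1.68 on the miR-29 arrays, against -2.53, -2.26 and -2.49 on the control arrays. The groups did not overlap, and this probe rose by 0.70 on the log2 scale (SE 0.082, limma adjusted p = 0.000792), or 1.63-fold. The rise was 0.81 within slide 1, with an adjusted p of 0.00347 for the slide as a block, and 0.46 with normexp, where the call held.

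The other Mbp probes, both of accession NM_010777, did not give a tested value. Probe A_51_P349205 is printed on 10 spots of each array, and 1 of its 30 spots on the miR-29 arrays, against 0 of 30 on the control arrays were well above background. Its mean signals were 4.82, 4.31 and 5.38 on the miR-29 arrays, against 2.61, 2.45 and 2.72 on the control arrays, none of them well above background, so no fold is given. Probe A_52_P329451 was well above background on 1 control array, replicate 2, with signals of 8.54, 9.86 and 10.7 on the miR-29 arrays, against 4.80, 11.0 and 8.28 on the control arrays. Which Mbp transcripts each probe detects was not tested.

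Cnp encodes the cyclic nucleotide phosphodiesterase of noncompact myelin, which appears early in the lineage. Its levels were 1.66, 1.63 and 1.64 on the miR-29 arrays, against 1.20, 1.17 and 1.24 on the control arrays. The groups were apart and each was narrow, with a rise of 0.44 on the log2 scale (SE 0.047, limma adjusted p = 0.000565), or 1.36-fold. A rise of this size or more was seen in 18.8% of the tested probes. With spike-in scaling it was 0.21 and the call was lost (adjusted p = 0.0583). With no scaling it was 0.47, with an SE of 0.21, and did not pass (adjusted p = 0.0811).

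Mag encodes a sialic-acid-binding adhesion protein of the myelin layer next to the axon. Probe A_51_P435428 read 2.40, 2.31 and 2.25 on the miR-29 arrays, against 2.23, 3.24 and 3.07 on the control arrays. Control replicate 1 was the lowest of the 6 arrays and the 2 controls of slide 2 were the highest. The difference of -0.53 (SE 0.26) did not pass (limma adjusted p = 0.126). It was 0.093 within slide 1, and -0.84 without control replicate 1 (limma adjusted p = 0.000875), where slide and group coincide.

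Probe A_52_P375021, of the same accession NM_010758, read -4.74, -4.45 and -4.87 on the miR-29 arrays, against -4.99, -4.14 and -4.51 on the control arrays. The groups overlapped, with a difference of -0.14 (SE 0.23, adjusted p = 0.609), of 0.30 within slide 1 and of 0.062 without control replicate 2. The fold changes of the 2 Mag probes differed by -0.39 (limma adjusted p = 0.0815), which did not pass. In processed signal A_52_P375021 read 14.9 to 27.5, against 2223 to 5264 for A_51_P435428. The 2 probes thus gave very unlike levels, and the brighter one counted for the gene.

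**Figure D3:**
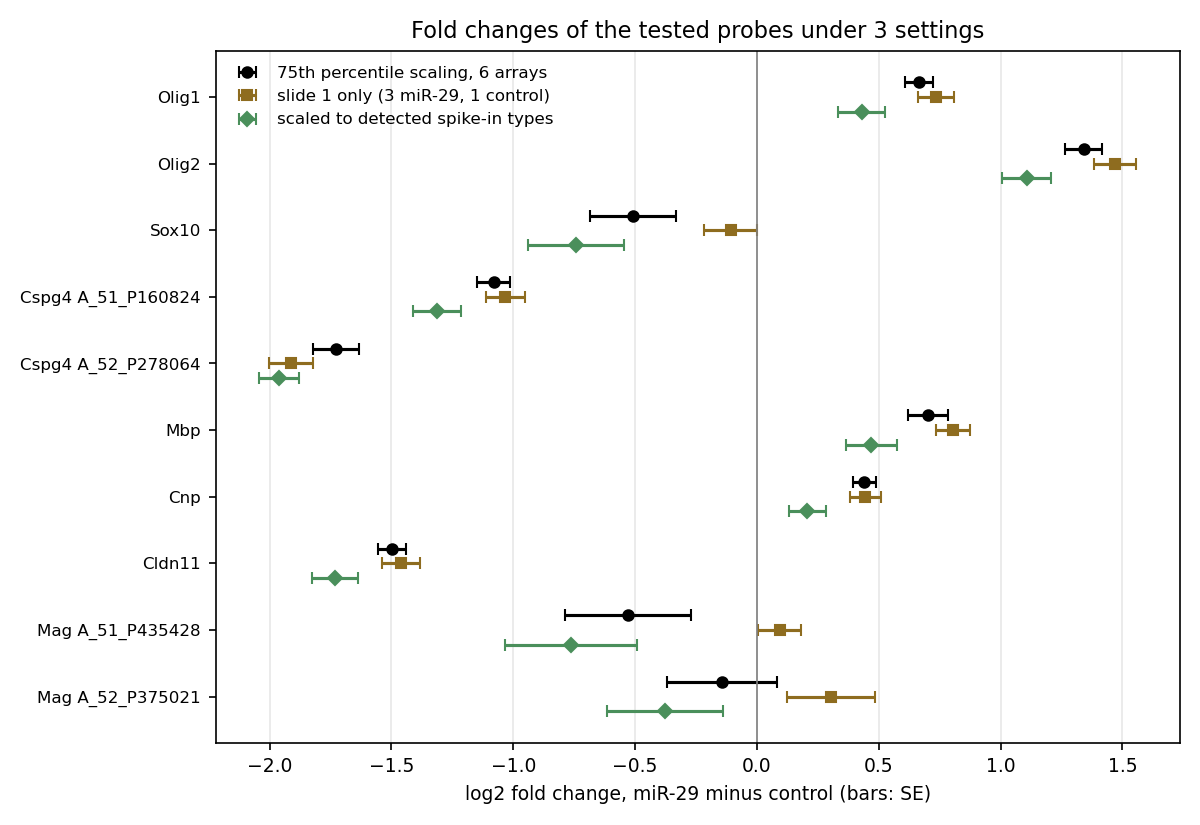
Log2 fold change, miR-29 minus control, of the 10 tested probes with SE bars, from all 6 arrays scaled to the 75th percentile (circles), from slide 1 alone with 3 miR-29 arrays and 1 control array (squares, SE from the spread of the miR-29 arrays), and with scaling to the detected spike-in RNAs (diamonds). Olig1, Olig2, Mbp and Cnp lie right of 0 and Sox10, Cspg4 and Cldn11 left of 0 in each, and both Mag probes cross 0 within slide 1.

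The 250 bases before the start site are shown for the 3 genes with the largest differences, Olig2, Cspg4 and Cldn11. They come from the RefSeq promoter table of build GRCm38.p6, from which windows of 5 of the 9 genes were searched. Entries on 1 chromosome were left out before that count, so it does not say which genes the table holds. A pair of motifs was searched on both strands, the E box CANNTG, bound by basic helix-loop-helix factors such as OLIG2, and the SOX motif ACAAAG or ACAATG, and capitals mark a match. All 3 genes are on the plus strand, at chr16:91225300-91225549 for Olig2, chr9:56864854-56865103 for Cspg4 and chr3:31149670-31149919 for Cldn11.
Olig2: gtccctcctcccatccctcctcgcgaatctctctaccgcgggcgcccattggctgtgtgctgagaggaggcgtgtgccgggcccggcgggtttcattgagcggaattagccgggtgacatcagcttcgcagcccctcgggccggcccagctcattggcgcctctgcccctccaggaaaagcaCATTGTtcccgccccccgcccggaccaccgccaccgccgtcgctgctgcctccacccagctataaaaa
Cspg4: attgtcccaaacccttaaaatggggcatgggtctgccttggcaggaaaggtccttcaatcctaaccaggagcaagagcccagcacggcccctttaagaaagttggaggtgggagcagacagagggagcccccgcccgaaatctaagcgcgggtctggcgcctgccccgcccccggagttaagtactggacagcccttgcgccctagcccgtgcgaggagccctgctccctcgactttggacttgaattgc
Cldn11: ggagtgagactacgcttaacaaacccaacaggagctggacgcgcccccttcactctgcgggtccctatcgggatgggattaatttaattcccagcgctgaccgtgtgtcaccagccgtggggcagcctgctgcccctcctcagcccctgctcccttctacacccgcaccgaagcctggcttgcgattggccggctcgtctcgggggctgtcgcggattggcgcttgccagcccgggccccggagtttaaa
Olig2 held 1 SOX match, whose first base is at -68 from the start site, and 0 E boxes. Cspg4 and Cldn11 held 0 matches of either motif in this window. The Cnp window held 1 E box, at -124, and 1 SOX match, at -167. Mag has 3 listed start sites, whose windows held 2, 1 and 0 E boxes and 0, 1 and 1 SOX matches. The last 2 of these windows overlap, and their SOX matches are the same bases. Over all 32851 such windows, 66.2% held an E box and 25.2% a SOX match. A match describes letters and not a bound site.

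Other genes of the lineage were counted in 4 lists written from textbook knowledge, each gene by its brightest tested probe. Of the other lineage transcription factor genes 10 of 12 on the array were tested, of which 4 rose, 2 fell and 4 did not pass, and the median was 0.12 (-0.11 with spike-in scaling). Nkx6-2, a homeobox factor of the lineage, rose by 1.72 (SE 0.068, limma adjusted p = 3.41e-05), Zeb2, a zinc finger factor needed for myelination, by 0.51, and Nkx2-2, a homeobox factor of precursors, by 0.31. Zeb2 had 2 further probes, at 0.88 and 0.21, and the 0.21 did not pass. Nkx2-2 lost its call with spike-in scaling (0.077) and with no scaling (0.34). Sox8, a relative of Sox10, fell by 0.24 (adjusted p = 0.0307), a call lost under 9 of 20 alternatives, with values down to -0.085. Myrf, the activator of myelin genes, differed by -0.79 with an SE of 0.37 and did not pass (adjusted p = 0.114). The Myrf fall passed with normexp (-0.49, limma adjusted p = 0.0434) and with no scaling (-0.76, limma adjusted p = 0.00254). It also passed without miR-29 replicate 1 (-0.34, limma adjusted p = 0.0486), and under no other alternative.

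Of the other precursor genes 15 of 18 on the array were tested, of which 1 rose, 6 fell and 8 did not pass, and the median was -0.18. Pdgfra, the growth factor receptor that defines precursors and is also found on fibroblasts, fell by 0.97 (SE 0.048, limma adjusted p = 4.91e-05). Its other probe gave 0.10 and did not pass (limma adjusted p = 0.551). That other probe was near background, at -4.90 in miR-29 samples and -5.00 in control samples. Matn4, a matrix protein, fell by 0.80, Lingo1, a membrane protein that restrains maturation, by 0.51 and Gpr37l1, a receptor also of astrocytes, by 0.50. The Lingo1 call was lost under 9 of 20 alternatives, at values of -0.57 to -0.13, the last with normexp. The Gpr37l1 call was lost with no scaling (-0.47), while its other probe gave -0.58.

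Of the premyelinating genes 9 of 11 on the array were tested, of which 3 rose, 2 fell and 4 did not pass, and the median was 0.15 (-0.086 with spike-in scaling). Rap2a, a small GTPase, fell by 1.74 (SE 0.069, adjusted p = 3.48e-05), and Tmem163, a zinc transporter, by 0.25, a call lost under 9 of 20 alternatives at values of -0.26 to -0.19. Ust, a sulfotransferase, rose by 1.04 (SE 0.10), where its other probe gave 0.58 and did not pass, and Itpr2, a calcium release channel, rose by 0.50.

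Of the other myelin genes 19 of 30 on the array were tested, of which 5 rose, 8 fell and 6 did not pass, and the median was -0.16 (0.034 within slide 1 and -0.39 with spike-in scaling). Qk, an RNA-binding regulator of myelin transcripts, rose by 1.05 (SE 0.052, limma adjusted p = 4.97e-05), where 2 further Qk probes gave 0.41 and -0.035. Tspan2, a tetraspanin, fell by 0.87 (-1.43 with its other probe), and Car2, the carbonic anhydrase of oligodendrocytes, by 0.84. Mobp, a myelin protein, differed by -0.24 and did not pass (limma adjusted p = 0.411), and was 0.31 within slide 1. Mobp gave -0.52 without control replicate 1 (limma adjusted p = 0.00858), where slide and group coincide. Mog and Ugt8a, which encode a surface protein and a lipid enzyme of mature oligodendrocytes, had on none of the 6 arrays a signal well above background. Opalin, Gjc3, Gal3st1, Fa2h, Tppp and Klk6 were likewise on no array well above background. Over the 4 lists together 13 of 53 genes rose and 18 fell, or 24.5% and 34.0%, beside 36.5% and 25.3% of all genes.

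**Figure D4:**
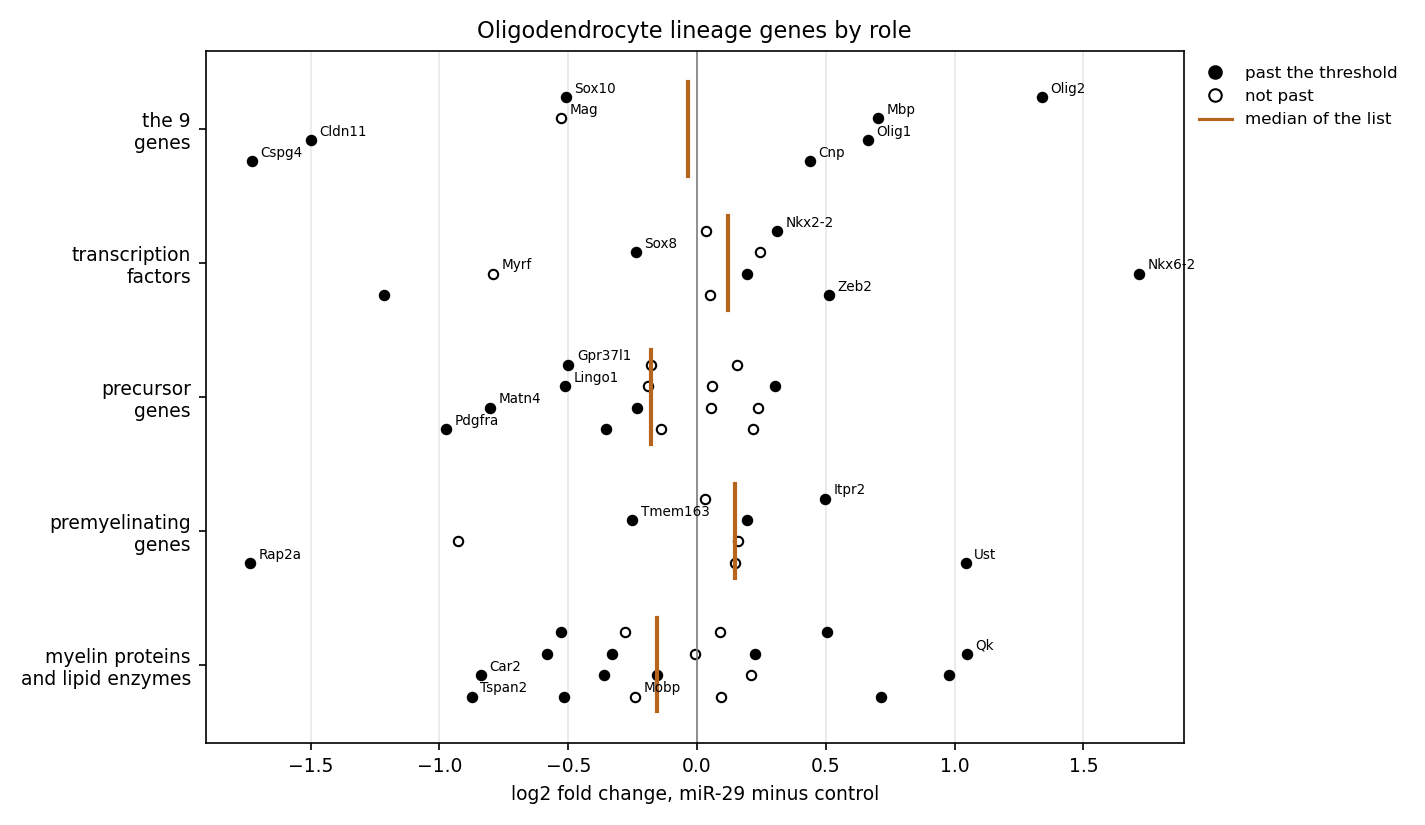
Log2 fold change, miR-29 minus control, of the brightest tested probe of each gene of the set of 9 (8 tested) and of the 4 other lists of the lineage. Filled points passed the threshold and vertical bars mark each list's median. Rises and falls stand in every list, from -1.74 for Rap2a to 1.72 for Nkx6-2.

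Several of the 9 genes are also expressed by other cell types that such cultures can hold, so marker lists of these were counted in the same way. Beside these counts, 36.5% of all genes with a symbol were higher and 25.3% lower, with a median of 0.060 (-0.17 with spike-in scaling). Of 12 astrocyte markers 11 were well above background on all 6 arrays and Gjb6 on none. Of the 11, 7 rose, 1 fell and 3 did not pass, and the median was 0.33 (0.093 with spike-in scaling). The filament gene Gfap rose by 0.60, the glutamate transporter Slc1a3 by 1.67, the fatty acid binding protein gene Fabp7 by 1.30 and Aldh1l1, of folate metabolism, by 0.73, while the water channel gene Aqp4 did not pass (0.15, adjusted p = 0.328). The summed level of the 11 markers, in multiples of the 75th percentile, was 106 to 116 on the miR-29 arrays, against 74.2 to 78.1 on the control arrays. Aldoc and Aldh1l1 together carried 60.2% of it in miR-29 samples and 62.7% in control samples.

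Pericyte and mural markers bear on Cspg4. Of the 8 that were tested, 5 rose, 1 fell and 2 did not pass, and the median was 0.57 (0.34 with spike-in scaling). The markers Rgs5 and Kcnj8 had on none of the 6 arrays a signal well above background. Pdgfrb, the defining receptor, fell by 0.68 (SE 0.047), while Notch3 rose by 1.94, and the contractile genes Myh11 by 1.60 and Tagln by 0.67. The summed level was 437 to 479 on the miR-29 arrays, against 286 to 324 on the control arrays. Acta2 and Tagln together carried 95.5% of it in miR-29 samples and 90.9% in control samples, so it is chiefly that of these contractile genes and not of Pdgfrb. The part of these cells in the fall of Cspg4 was not tested.

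Meningeal and arachnoid markers bear on Cldn11. Of the 9 that were tested, 3 rose, 2 fell and 4 did not pass, and the median was 0.17 (-0.069 with spike-in scaling), and neither Cdh1 nor Dpp4 was well above background on an array. Nnat rose by 1.55 and Aldh1a2, a retinoic acid enzyme, by 0.80 (0.30 with normexp, where it did not pass), while the transporter gene Slc6a13 fell by 0.61 (-0.41 with the slide as a block and -0.076 with normexp, neither past the threshold) and the prostaglandin synthase gene Ptgds by 0.26 (-0.23 with no scaling, where it did not pass). The summed level was 61.3 to 65.2 on the miR-29 arrays, against 55.3 to 60.9 on the control arrays. Dcn and Foxc1, neither of which passed, together carried 96.8% of it in miR-29 samples and 96.6% in control samples, so it says little of the other markers. The part of these cells in the fall of Cldn11 was not tested.

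Schwann cell and melanocyte markers bear on Sox10 and Mag. Of the 6 that were tested, 1 rose, 2 fell and 3 did not pass, and the median was -0.18 (-0.41 with spike-in scaling). Tyr was on no array well above background. Egr2, the myelination factor of Schwann cells and an immediate early gene of many cells, fell by 1.41 (SE 0.10) and the peripheral myelin gene Pmp22 by 0.47 (-0.43 with no scaling, where it did not pass), while Prx rose by 0.30, which spike-in scaling brought to 0.069 without a call. The summed level was 29.1 to 29.8 on the miR-29 arrays, against 41.4 to 44.7 on the control arrays. Pmp22, which many cell types express, carried 91.3% of it in miR-29 samples and 85.9% in control samples. The part of these cells in the values of Sox10 and Mag was not tested.

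**Figure D5:**
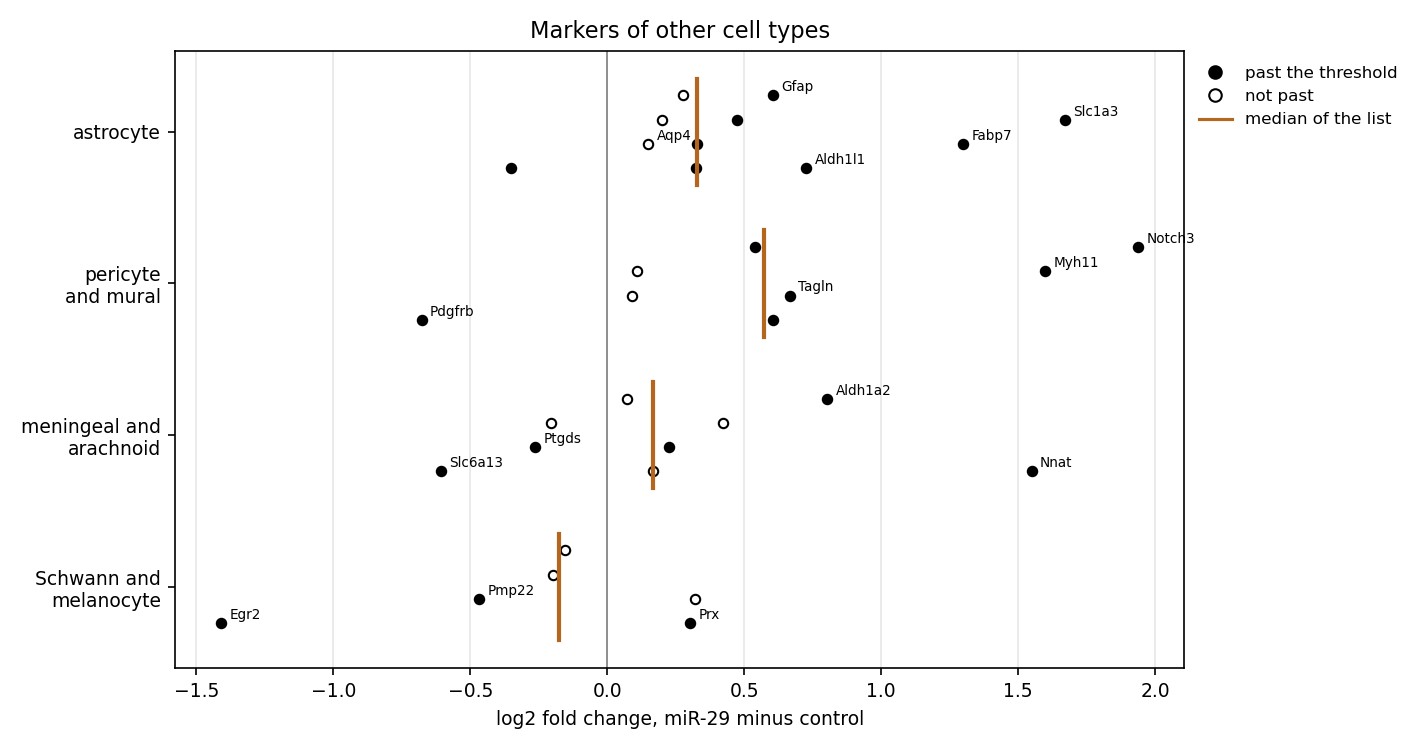
Log2 fold change, miR-29 minus control, of markers of 4 other cell types, each gene by its brightest tested probe. Filled points passed the threshold and vertical bars mark the medians, which are 0.33 for astrocytes, 0.57 for pericytes and mural cells, 0.17 for meningeal and arachnoid cells and -0.18 for Schwann cells and melanocytes.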

How the data were processed

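Expression was measured on 6 one-colour Agilent arrays, 3 per group. Per the file headers, Agilent Feature Extraction 10.7.3.1 (10.7 in the submitters' processing notes) made the deposited processed signal, a background-subtracted intensity on a linear scale. The authors' value table deposited with the series holds that intensity times 1 factor per array (2.627 to 3.427), by a rule that the sources used here do not give. Here the log2 of the deposited signal, floored at 1, minus the array's 75th percentile (474 to 626) was used. Control and outlier-flagged spots were left out, spots of a probe were averaged, and 26428 of 41174 probes well above background on all 3 arrays of a group were kept. The files carry accessions, by which 26925 probes matched exactly 1 symbol of the RefSeq table (GRCm38.p6) and 14249 did not. The test per probe was the two-sided one of limma 3.58.1 (lmFit, eBayes; R 4.3.3), adjusted by Benjamini and Hochberg. Pairs of probes of 1 gene were compared by the same fit on their difference. The number of arrays limits the precision.

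The members and lists were chosen with earlier results of these data known. Named genes are all 9 members, up to 4 genes past the threshold with the largest change from each list, and a set of further genes, among them Pdgfra, Sox8, Nkx2-2, Myrf, Mog, Mobp, Ugt8a, Gfap, Aqp4 and Pdgfrb. A few genes falling under this rule are left unreported. Undetected list genes and the genes that carry a summed level were named outside this rule, after their values were seen. On simulated data with 50 probes changed for each effect, 94% and 80% of the probes lowered by 2 and 1 on the log2 scale were recovered. Of those raised by 2 and 1, 90% and 78% were recovered. Far fewer probes were changed there than were called in the data, so these rates do not give the power of this comparison. Alternatives were normexp (offset 50, on median signals, since mean signals were not used here), quantile, median, spike-in (6 of 10 types detected) and no scaling, the deposited table, other filters, slide and replicate as a block, slide 1 alone, another variance model, 1 value per gene, and each array left out.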

Additional observations from a re-analysis of the deposited data

How the results depend on the processing

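Over all alternatives 3 to 5 member probes were higher and 3 to 5 lower, and the sign and call of Olig1, Olig2, both Cspg4 probes, Mbp and Cldn11 held under every one run for them. Without scaling 4244 probes were higher and 3188 lower, and of the other lineage genes 8 were higher and 9 lower, against 8993, 6205, 13 and 18. Scaled to spike-ins, 3970 probes were higher and 9931 lower, and 8 other lineage genes were higher and 23 lower. The difference between Mag probes ranged from -0.47 to -0.26 with an array left out. It passed without control replicate 1 (-0.47, limma adjusted p = 0.0482), where slide and group coincide. With the slide as a block or within slide 1, Mag was 0.093 and 0.30, Mobp 0.31 and Aqp4 -0.076. Mag probe A_52_P375021 ranged from -0.37 to 0.062 with an array left out, and Aqp4 was -0.085 with spike-ins and -0.061 as the mean of its probes. With an array left out, 7233 to 9595 probes were higher and 5019 to 7783 lower, and of the other lineage genes 10 to 14 were higher and 12 to 21 lower. The cause of these changes was not tested. Deviations of same-numbered arrays correlated at 0.14, 0.099 and 0.27, each the highest for its number, which is a hint from the data and not the design. The replicate block ended the call of Sox10 (-0.51, adjusted p = 0.0586), kept the Cspg4 probe difference (0.65, adjusted p = 0.0105) and gave 9127 probes higher and 6242 lower. Signals near background limit, among others, Sox10, Mag probe A_52_P375021 and the 6 untested probes. They also limit Matn4, Myh11, Elavl3 and Elavl4. The smallest changes of these genes over the alternatives were -0.22, 0.54, 0.45 and 0.55, with every call kept.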

Other observations

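Markers of cell types that none of the 9 genes mark were also measured. Over all genes with a symbol, 36.5% were higher and 25.3% lower, with a median of 0.060. Of 10 tested neuron markers 3 rose, 4 fell and 3 did not pass, and the median was 0.029 (-0.21 with spike-in scaling). The RNA-binding protein genes Elavl3 and Elavl4 rose by 1.65 (SE 0.12) and 1.37 (SE 0.20). Both were near background in control samples, at -5.21 and -4.68. Gad2, an enzyme of GABA synthesis, fell by 0.97, while its other probe gave -0.040 and did not pass (limma adjusted p = 0.898). Slc17a7, a vesicular glutamate transporter gene, differed by -2.86 (SE 0.86, limma adjusted p = 0.0297), was detected above background by 1 of 3 miR-29 arrays and by each control array, and lost its call under 7 of 19 alternatives, among them the slide as a block (-1.49). Of 10 microglia markers 4 were tested, of which 1 rose, 2 fell and 1 did not pass, and Aif1, Cx3cr1, Trem2, C1qa and Ptprc had on none of the 6 arrays a signal well above background. Csf1r, the receptor that microglia need, fell by 1.40, a call lost under 5 of 20 alternatives, among them the slide as a block (-0.73), and opposed by another of its probes (0.36). P2ry12 rose by 0.52, a call lost under 7 of 20 alternatives at values of 0.087 (normexp) to 0.56. Tmem119 fell by 0.44 (-0.41 with no scaling, where it did not pass).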
